A study of Mus musculus with 2 samples.

Results

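B cells found in a sort for cells with a history of T-bet were 266 of 13298 kept barcodes in single-cell RNA libraries of mouse thymus, 219 in the cKO library and 47 in the control library. A barcode marks the RNA caught in 1 droplet, and it was kept when it held 500 genes or more and when mitochondrial genes took no more than 10% of its UMIs (unique molecular identifiers, each counting 1 captured transcript). Members were chosen by transcripts: at least 2 UMIs over Cd79a and Cd79b, which encode the signalling chains of the B cell receptor, and Ms4a1, which encodes CD20, with no UMI of Cd3d, Cd3e or Cd3g of the T cell receptor complex and none of the NK cell receptor gene Ncr1. These genes chose the members, and their levels below are description.

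The cKO library came from Tbx21Cre Ets1F/F Rosa26-YFP+ mice and the control library from Tbx21Cre Rosa26-YFP+ mice, so both groups carried the Cre transgene and the YFP reporter. Tbx21, which encodes T-bet, drives the Cre, which switches on YFP permanently and, in the cKO mice, deletes the floxed Ets1. A YFP+ cell therefore had Cre activity at some time and need not express Tbx21 when it is sorted. YFP+ thymus cells of 2 mice were pooled into each library, and the labels, which title the libraries thymic iNKT1, give neither age nor sex. With 1 library for each genotype the differences have no replicate check and were not tested, and the mice of a pool cannot be told apart. Every interval below, unless said otherwise, is an exact 95% interval that covers counting error only.

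B cells are a minor resident population of the thymus, where they present antigen to developing T cells. T-bet in B cells is known from a memory-like subset that carries CD11c, CXCR3 and FCRL5, and it promotes switching of the antibody heavy chain to the IgG2a and IgG2c classes. Ets1, an ETS family transcription factor, is known in mouse B cells to restrain their development into antibody-secreting plasma cells. A naive B cell makes heavy chains of the IgM and IgD classes. Class switch recombination, which takes place in activated B cells, joins the same variable region to a constant gene for IgG, IgE or IgA.

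Members held 1649829 UMIs in the cKO library and 332378 UMIs in the control library, with medians of 7291 and 3194 UMIs per barcode in cKO and control members. They made up 3.71% of kept cKO barcodes (3.24 to 4.22) and 0.636% of kept control barcodes (0.467 to 0.844). After every barcode was thinned to 1500 UMIs, the rule took 217 of 4606 cKO barcodes, 4.71% (4.12 to 5.36), and 42 of 5201 control barcodes, 0.808% (0.583 to 1.09), with 1297 cKO and 2194 control barcodes too shallow to enter. The size of this gap rested on the condition on Cd3. With Cd3 UMIs allowed, 334 cKO barcodes, 5.66% (5.08 to 6.28), and 253 control barcodes, 3.42% (3.02 to 3.86), passed. The 115 cKO barcodes left out for Cd3 had medians of 11562 UMIs and 2 Cd3 UMIs, whereas the 206 control barcodes had medians of 2074 UMIs and 4 Cd3 UMIs. Whether these were T and B cells in 1 droplet was not tested. Across the libraries 29 barcode sequences were shared, of which 0 belonged to members.

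Most members carried further B cell transcripts that the rule did not use. Cd74, the class II invariant chain, was present in 212 of 219 cKO members and 47 of 47 control members. A light chain constant gene was detected in 207 cKO and 47 control members, and Pax5, the transcription factor that maintains B cell identity, in 108 cKO and 12 control members. Most listed genes of other lymphoid cells were detected in cKO members. Only 1 of 12 T cell, 0 of 8 NK cell and 1 of 5 plasmacytoid genes had 0 UMIs there, and 5 of 11 myeloid and dendritic genes. Cd4, the dendritic cell genes Xcr1 and Clec9a, the neutrophil genes S100a8 and S100a9, and the plasmacytoid dendritic cell gene Cox6a2 had 0 UMIs in members of both libraries. A T cell list UMI was held by 86 of 219 cKO and 30 of 47 control members, and an NK cell list UMI by 75 cKO and 24 control members. The summed T cell list reached 73.3 CPM in cKO members and 208 CPM in control members, where CPM is the share of the members' UMIs taken by a gene or list, scaled to counts per 1e+06 UMIs. A member held between 0 and 5 UMIs of that list in cKO and between 0 and 6 in control. Of 5 T cell genes reaching 20 CPM 4 were lower in cKO by the size rule given below, which called 5.67% of all genes lower. Trbc2 of the T cell receptor, among the 4, stood at 17.0 CPM in cKO and 75.2 CPM in control. The part of these T cell genes in the results was not tested. The summed NK cell list stood at 76.4 CPM in cKO and 141 CPM in control, the myeloid and dendritic list at 347 and 355 CPM in cKO and control, nearly all Cst3, the plasmacytoid list at 234 and 187 CPM, mostly Bst2, and the erythroid list at 6.06 and 18.1 CPM.

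Some cKO members went against the label. In 37 of 219 cKO members and 0 of 47 control members at least 5 UMIs came from gut epithelium or stromal genes, such as Zg16, a goblet cell lectin, Fabp6, an ileal bile acid binding protein, the Paneth cell defensin genes Defa24 and Defa30, and the collagen gene Col3a1. These 37 had medians of 1613 UMIs, 2 chosen B cell UMIs, 2 Cd74 UMIs and 74 gut epithelium UMIs, so they were gut-rich barcodes at the edge of the rule. Of the 35 cKO members with exactly 2 chosen UMIs 30 were gut-rich, and of the 152 cKO barcodes just outside the rule, with 1 such UMI, 141 were. In the control library 4 members held exactly 2 chosen UMIs and 14 barcodes lay just outside with 1. All 11 gut epithelium genes and all 4 stromal genes of the lists had 0 UMIs in control members, and their sums in cKO members were 2999 and 172 CPM. Gut-rich barcodes were common in the cKO library as a whole. At least 5 gut or stromal UMIs were held by 2065 of 5903 kept cKO barcodes and 3 of 7395 kept control barcodes. Without such barcodes members made up 4.74% of 3838 cKO barcodes (4.09 to 5.46) and 0.636% of 7392 control barcodes (0.468 to 0.845). Results are therefore also given without the gut-rich members, leaving 182 cKO barcodes. These had a median of 8224 UMIs, and 90 of them still held a gut epithelium UMI. Results are given as well for the 137 cKO and 27 control members with at least 10 chosen UMIs. Their medians of 9587 UMIs in cKO and 8989 UMIs in control were nearly matched.

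**Figure D1:**
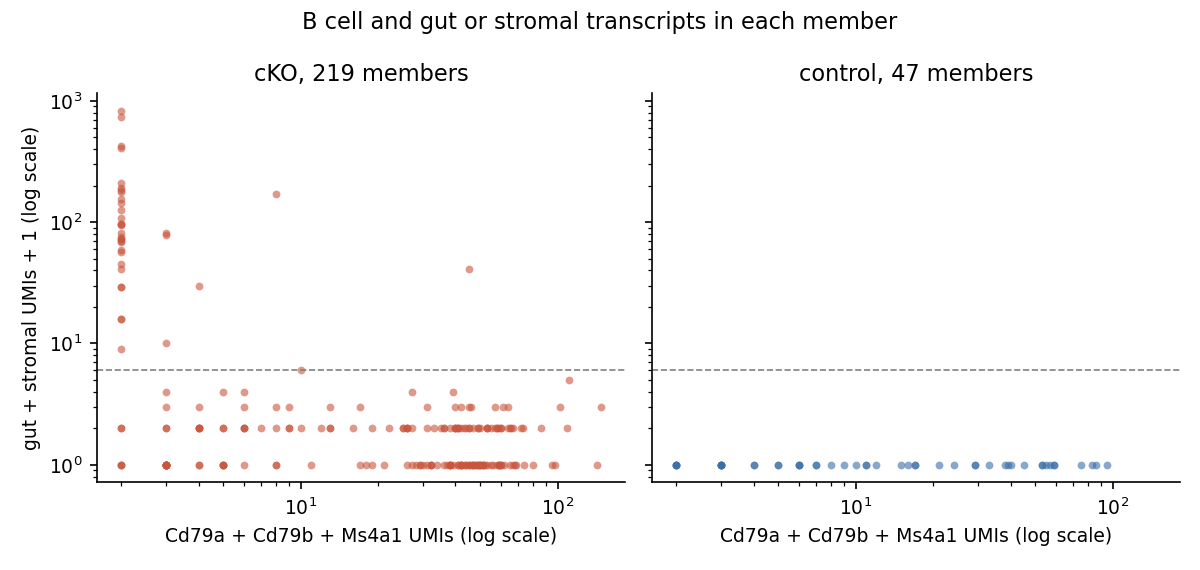
Each point is 1 member, cKO on the left and control on the right, by its UMIs of the 3 genes that chose it (x axis, log scale) and its UMIs of gut epithelium and stromal genes plus 1 (y axis, log scale). The dashed line marks 5 such UMIs; 37 cKO members reach it, most at the left edge with 2 chosen UMIs, and 0 control members do.

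The targeted gene was only modestly lower over all members. Ets1 (GRCm38 chromosome 9, plus strand, 32636221 to 32757820) had 224 UMIs in 110 cKO members, 136 CPM (119 to 155), and 65 UMIs in 23 control members, 196 CPM (151 to 249). It was 1.45-fold lower in cKO (1.08 to 1.91), and 131 CPM in cKO against 207 CPM in control in members with at least 10 chosen UMIs. In T cells, taken as barcodes with at least 2 Cd3 UMIs and no chosen B cell or Ncr1 UMI, Ets1 stood at 174 CPM in cKO and 511 CPM in control, 2.94-fold lower. In NK cells, taken by Ncr1, it stood at 75.4 CPM in cKO and 356 CPM in control, 4.66-fold lower. The libraries read transcripts from their polyadenylated end and the labels do not give the floxed exons, so the counts may include transcripts of a deleted allele.

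Groups of members differed in whether and how far Ets1 was lower. In members whose heavy chain transcripts were mainly Ighm and Ighd, described below as unswitched, Ets1 stood at 131 CPM (111 to 154) in 139 cKO members and 389 CPM (234 to 607) in 11 control members, 3.03-fold lower (1.74 to 4.79). In switched members it stood at 148 CPM in 45 cKO and 166 CPM in 21 control members, a ratio of 0.886 (0.592 to 1.35). Among members with UMIs of at least 2 of 5 germinal centre genes it was 125 CPM in 9 cKO and 318 CPM in 9 control members, 2.46-fold lower (1.23 to 5.78). These 9 control members held 34 of the 65 control Ets1 UMIs. In members with fewer such genes Ets1 stood at 136 CPM (119 to 156) in cKO and 137 CPM (93.4 to 195) in control, 1.02-fold lower (0.668 to 1.47). That control sum mixes unlike members. It includes the most IgA-rich one, with 52570 UMIs and 0 Ets1 UMIs, and all 11 unswitched control members. In unswitched cKO members that were not in this germinal centre group, not gut-rich and held fewer than 15 Jchain UMIs, Ets1 stood at 137 CPM (115 to 162) in 123 members. The control side was the same 11 members at 389 CPM (234 to 607). It could not change by leaving out that group, because the 9 control members in it held 0 Ighm and 0 Ighd UMIs. Switched members under the same conditions went the other way. There Ets1 stood at 160 CPM (122 to 205) in 36 cKO and 112 CPM (55.9 to 200) in 12 control members, with overlapping intervals. These groups were drawn from the members' own transcripts after their values were seen.

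**Figure D2:**
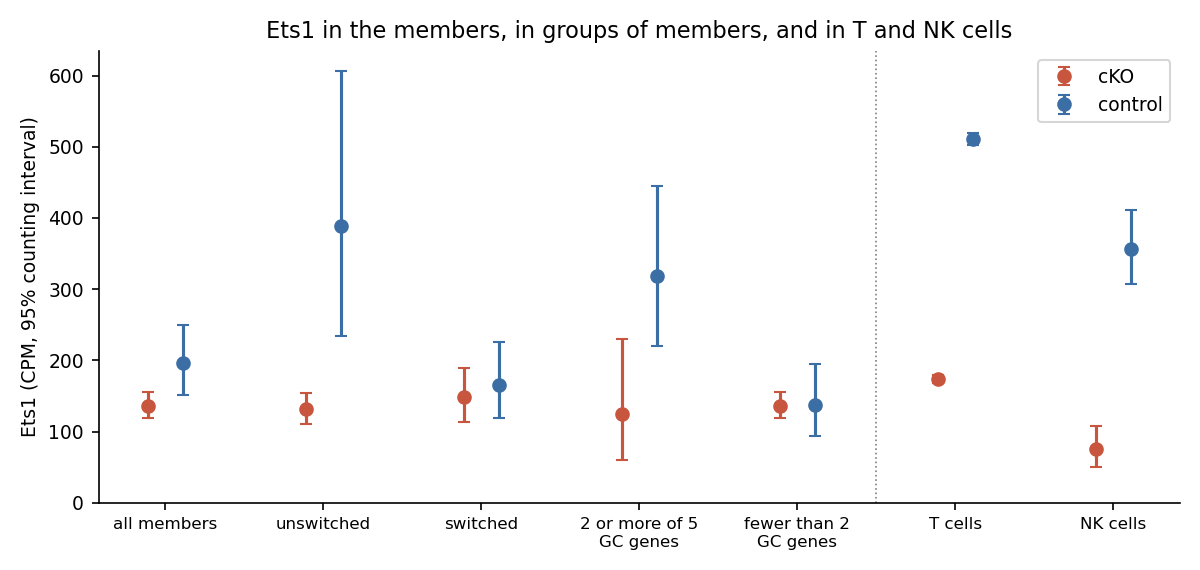
Ets1 level in CPM with its exact 95% counting interval, cKO to the left of control in each pair. The first 5 pairs are all members and groups of members (GC, germinal centre), and the last pairs are T cells and NK cells. The intervals overlap in switched members and in members with fewer than 2 germinal centre genes. By a narrow margin they also overlap in all members and in the other GC group. They lie apart in unswitched members and in the T and NK cells.

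Over all genes the members of the libraries differed widely. A gene counted as higher or lower by a size rule, which asked for a change of CPM of 1.5-fold or more, a level of 20 CPM or more on the higher side, and an interval of the ratio, cKO over control, that left out 1. Of 5926 genes reaching 20 CPM, 763 (12.9%) were higher in cKO members and 336 (5.67%) lower, with a median log2 ratio of 0.13. Without gut-rich members 688 (12.0%) of 5754 genes were higher and 339 (5.89%) lower. Among members with at least 10 chosen UMIs 666 (11.4%) of 5821 were higher and 389 (6.68%) lower. The split depended on scaling: with mitochondrial, ribosomal and immunoglobulin genes left out of the totals the rule called 553 higher and 647 lower, at a median log2 ratio of -0.07, and with median-ratio scaling it called 605 higher and 415 lower, at a median of 0.02. Of the 763 genes higher over all members, 623 were also higher without the gut-rich ones.

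T-bet itself was rarely captured in members. Tbx21 (chromosome 11, 97098071 to 97115331 on the minus strand) had 18 UMIs in 15 of 219 cKO members (6.85%), 10.9 CPM (6.47 to 17.2), and 3 UMIs in 3 of 47 control members (6.38%), 9.03 CPM (1.86 to 26.4). Both levels lay far below those of T cells, at 121 CPM in cKO and 82.5 CPM in control, and of NK cells, at 268 CPM in cKO and 186 CPM in control. In class II positive barcodes with no chosen B cell, Cd3 or Ncr1 UMI, 2 of 70 in cKO (2.86%) held a Tbx21 UMI, at a median depth of 1801 UMIs. After thinning to 1500 UMIs, 2 of 177 cKO members (1.13%, 0.137 to 4.02) and 0 of 34 control members held one, and a count of 0 among these 34 allows a share of up to 8.82%. A difference in Tbx21 between the libraries was not detectable at this depth.

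Zeb2 and Fcrl5, the T-bet-associated genes that passed the size rule, were higher in cKO members. Zeb2, a transcription factor that acts beside T-bet in effector lymphocytes, had 255 UMIs in 92 cKO members, 155 CPM (136 to 175), and 20 UMIs in 7 control members, 60.2 CPM (36.8 to 92.9), a ratio of 2.51 (1.63 to 4.28). Fcrl5, an Fc receptor-like inhibitory receptor of B cells, had 139 UMIs in 73 cKO members, 84.3 CPM (70.8 to 99.5), and 5 UMIs in 5 control members, 15 CPM (4.88 to 35.1), a ratio of 5.11 (2.34 to 17.5). Fcrl5 was nearly absent from T cells, with 0 UMIs in 3182 cKO and 3 UMIs in 6225 control T cells. Zeb2 was also expressed by T cells, at 69.5 CPM in cKO and 9.06 CPM in control, and the part of T cell RNA in the members' level was not tested. After thinning, 13.6% of cKO members (8.88 to 19.5) and 8.82% of control members (1.86 to 23.7) held a Zeb2 UMI, and 11.3% of cKO (7.04 to 16.9) and 5.88% of control members (0.720 to 19.7) a Fcrl5 UMI, so the shares of members could not be told apart at that depth.

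Most other genes linked to T-bet+ B cells did not pass the rule. Of the 16 listed genes 11 reached 20 CPM, 2 were higher, close to the 12.9% of all genes, and 0 lower, and the median log2 ratio of the 11 was 0.01, but 3 were lower with mitochondrial, ribosomal and immunoglobulin genes left out of the totals and 2 with median-ratio scaling. The chemokine receptor gene Cxcr3, a T-bet target in T cells, stood at 102 CPM in cKO and 66.2 CPM in control members, a ratio of 1.52 (0.989 to 2.54), and passed the rule without the gut-rich members and in those with at least 10 chosen UMIs. The integrin gene Itgax, which encodes CD11c, had 11 UMIs in 7 cKO members and 0 UMIs in control members, and Itgam of CD11b had 7 UMIs in cKO and 0 in control, at 6.67 and 4.24 CPM in cKO, both below the 9.03 CPM that 3 counts amount to in control. The death receptor gene Fas stood at 64.2 CPM in cKO and 93.3 CPM in control. The costimulatory gene Cd86 stood at 63.0 CPM in cKO and 87.3 CPM in control, its partner Cd80 at 23.0 and 18.1 CPM in cKO and control, and the Fc receptor adaptor gene Fcer1g at 55.8 and 84.2 CPM. The cytokine receptor genes Ifngr1 (94.6 and 99.3 CPM in cKO and control) and Il21r (119 and 117 CPM) lay close together. Tlr7, an RNA sensor, stood at 31.5 CPM in cKO and 21.1 CPM in control, and Tlr9 and Il12rb1 had at most 4 UMIs in each library.

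Some cKO members held both Zeb2 and Fcrl5 transcripts. UMIs of both were held by 53 of 219 cKO members and 3 of the shallower 47 control members. In cKO 92 members held Zeb2 and 73 held Fcrl5. Deeper members hold UMIs of more genes, and whether the overlap exceeded that was not tested. Among the 15 cKO members with Tbx21, 12 held Zeb2, 12 held Fcrl5 and 8 held Cxcr3, at a median of 13586 UMIs, while of the 3 control members with Tbx21 0 held Zeb2, 0 held Fcrl5 and 1 held Cxcr3. Zeb2 lay higher in unswitched than in switched cKO members, at 190 CPM (166 to 217) against 61.4 CPM (12.7 to 179) on 3 UMIs in unswitched control members. In switched members it stood at 78.7 CPM in cKO and 64.9 CPM in control, a ratio of 1.19 (0.651 to 2.35). Fcrl5 stood at 91.1 CPM in unswitched and 76.4 CPM in switched cKO members, against 40.9 and 12.2 CPM in unswitched and switched control members, which rest on 2 and 3 UMIs.

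The heavy chain class was read from the constant genes, which lie in 1 cluster on the minus strand of chromosome 12 in the order Ighm (113418558 to 113422730), Ighd, Ighg3, Ighg1, Ighg2b (113302965 to 113307933), Ighg2c (113285325 to 113288932), Ighe and Igha (113254830 to 113260236; GRCm38, GENCODE M21). Some of these genes resemble each other closely, so reads could be split between them. Over 1092 aligned bases of their transcripts Ighg2b and Ighg2c were 83.7% identical. The light chain genes Iglc2 and Iglc3 on chromosome 16 were 95.4% identical, with 21 of 452 aligned bases differing. The first 60 bases of each constant transcript, from GENCODE M21 and 5′ to 3′, are shown so that the likeness can be seen, with capitals at the positions where the compared genes differ. For Iglc2 the window starts at its second base.
Ighg2b: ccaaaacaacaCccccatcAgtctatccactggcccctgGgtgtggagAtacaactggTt
Ighg2c: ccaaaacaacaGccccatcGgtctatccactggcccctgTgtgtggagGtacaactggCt
Iglc1: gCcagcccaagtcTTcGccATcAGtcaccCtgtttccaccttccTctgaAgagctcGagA
Iglc2: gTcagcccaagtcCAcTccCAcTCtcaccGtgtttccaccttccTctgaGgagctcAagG
Iglc3: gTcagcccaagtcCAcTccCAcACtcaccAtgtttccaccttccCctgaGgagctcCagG
The IgG pair differs at 5 positions of this window and the lambda genes at 13. The libraries read the other end of the transcripts, and how reads matching several genes were counted is not given in the sources used here, so counts of single IgG and lambda genes are uncertain.

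IgM dominated the cKO members and IgA the control UMIs. Ighm had 10904 UMIs in 159 cKO members, 6609 CPM, and 235 UMIs in 17 control members, 707 CPM (620 to 803), a ratio of 9.33 (8.21 to 10.7). A cKO member held between 0 and 3333 Ighm UMIs with a median of 5, and a control member between 0 and 77 with a median of 0. Igha had 577 UMIs in 77 cKO members, 350 CPM, and 8263 UMIs in 16 control members, 24860 CPM, 71.0-fold lower in cKO (65.3 to 77.5). A single control member carried 6782 of these Igha UMIs together with 27949 Igkc and 3351 Jchain UMIs. Without it 1481 control Igha UMIs were left, of which 776 and 602 came from 2 more members.

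Cells that do not make antibody held Ighm UMIs too: 45.3% of cKO and 37.4% of control T cells had one, at median depths of 6943 and 2964 UMIs in cKO and control T cells. Their Ighm level was 149 CPM in cKO and 137 CPM in control, and that of NK cells 98.7 CPM in cKO and 148 CPM in control, well under the members' levels. After thinning to 1500 UMIs, 71.8% of cKO members (64.5 to 78.3) and 29.4% of control members (15.1 to 47.5) held an Ighm UMI.

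Of 8 heavy chain constant genes 7 reached 20 CPM, with 3 higher (Ighm, Ighg3 and Ighg2b) and 2 lower (Ighe and Igha). The shares over all genes were 12.9% higher and 5.67% lower. Ighg2b stood at 466 CPM in cKO and 292 CPM in control members, a ratio of 1.59 (1.29 to 1.99), and Ighg3 at 73.3 CPM in cKO and 27.1 CPM in control, a ratio of 2.58 (1.38 to 6.07). Ighg2c, the class that T-bet promotes, stood at 93.9 CPM in cKO and 99.3 CPM in control, a ratio of 0.935 (0.646 to 1.42). Ighe was 5.91-fold lower (2.36 to 15.4) on 10 UMIs in cKO and 12 UMIs in control. Ighd, which encodes the IgD chain of naive cells, stood at 116 CPM in cKO and 99.3 CPM in control, and Ighg1 had 25 UMIs in 7 cKO members and 0 UMIs in control members. T cells held Ighg2b at only 0.577 CPM in cKO and 0.599 CPM in control.

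Counted by member rather than by UMI, fewer cKO members were switched. A member was called switched with at least 2 UMIs of Ighg, Ighe and Igha genes and more of these than of Ighm and Ighd, and unswitched with at least 2 Ighm and Ighd UMIs and no fewer of them than of the others. Of called members 45 of 184 in cKO (24.5%, 18.4 to 31.3) and 21 of 32 in control (65.6%, 46.8 to 81.4) were switched. In members with at least 10 chosen UMIs the shares were 25.0% in cKO (18.0 to 33.1) and 65.2% in control (42.7 to 83.6). By summed UMIs, 13.0% of cKO and 96.9% of control heavy constant UMIs were switched, a wider gap. With Cd3 UMIs allowed in members, the share of switched members differed by -13.9 percentage points, cKO minus control (-28.4 to 0.656). This was in place of -41.2 (-63.0 to -15.5). These ranges are not exact intervals. Each was set by subtracting opposite bounds of the shares' intervals, which makes it wider than an exact interval. The range with Cd3 UMIs allowed takes in 0, but at that width it cannot decide whether a difference remained. Without plasma-like members, defined below, the UMI shares were 24.6% in cKO and 55.8% in control, and the member shares 24.4% in cKO (18.2 to 31.5) and 56.0% in control (34.9 to 75.6).

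The main switched gene was Ighg2b in 19, Igha in 18 and Ighg2c in 8 of the 45 switched cKO members. Among the 21 switched control members it was Igha in 8, Ighg2b in 5, Ighg2c in 5, Ighe in 2 and Ighg3 in 1. Within switched members Ighg2c stood at 326 CPM in cKO and 110 CPM in control, a ratio of 2.93 (1.96 to 4.68). A single cKO member held 50 of the 141 Ighg2c UMIs of switched cKO members. Within unswitched members Ighd stood at 164 CPM in cKO and 675 CPM in control, 4.17-fold lower (2.75 to 5.98). Equal counts, in 1 cKO and 2 control members, were given to the gene nearest Ighm. Of the 18 cKO members led by Igha, 12 remained without the gut-rich barcodes. An Ighg2b UMI was also present in 53 of the 139 unswitched cKO members and 4 of the 11 unswitched control members.

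Barcodes that were left out for a Cd3 UMI did not show this gap in class. Of those with a call, 39 of 105 in cKO (37.1%, 27.9 to 47.1) and 31 of 89 in control (34.8%, 25.0 to 45.7) were switched, and their Ighm level was 3004 CPM in cKO and 6817 CPM in control. A single control barcode with 12 Cd3 UMIs held 2523 of the 5960 control Ighm UMIs there. With these barcodes added to the members, the log2 ratio of Ighm was -0.06, so the higher Ighm of cKO members holds for the rule as given and not for all barcodes with B cell transcripts.

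**Figure D3:**
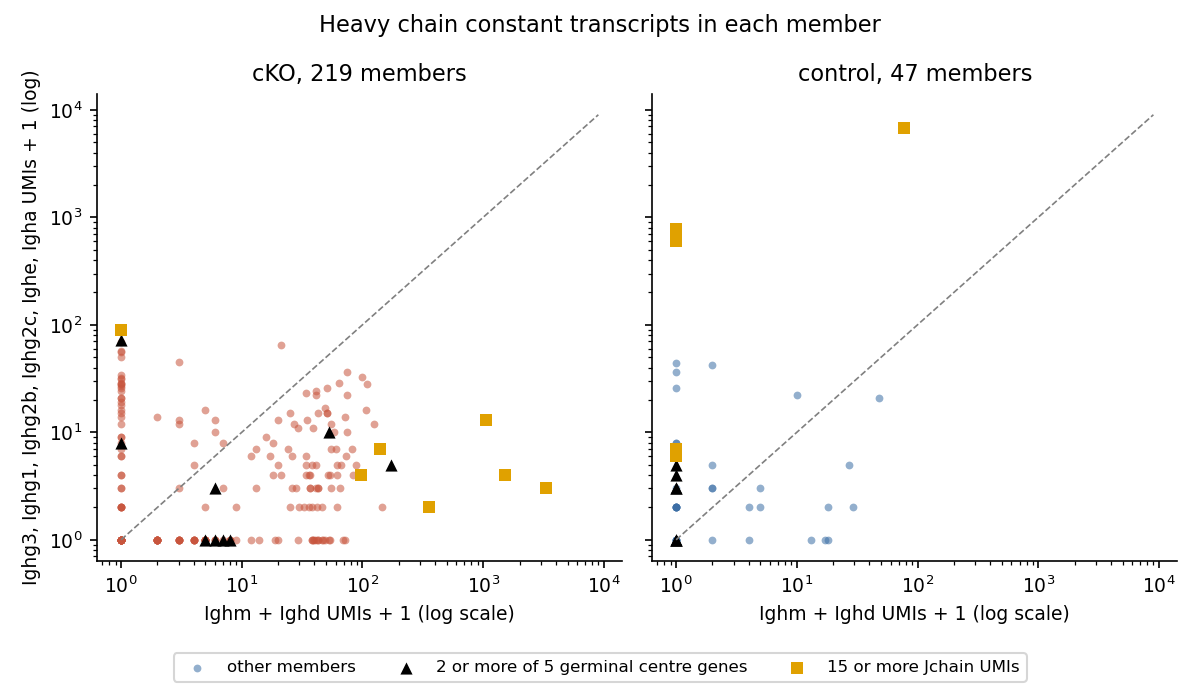
Each point is 1 member, cKO on the left and control on the right, by its Ighm and Ighd UMIs plus 1 (x axis, log scale) and its switched constant UMIs plus 1 (y axis, log scale), with equal counts on the dashed line. Squares are members with at least 15 Jchain UMIs, which lie mostly below the line in cKO and above it in control. Triangles are members with at least 2 of 5 germinal centre genes (2 control members that are both are drawn as squares), and circles are the other members.

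**Figure D4:**
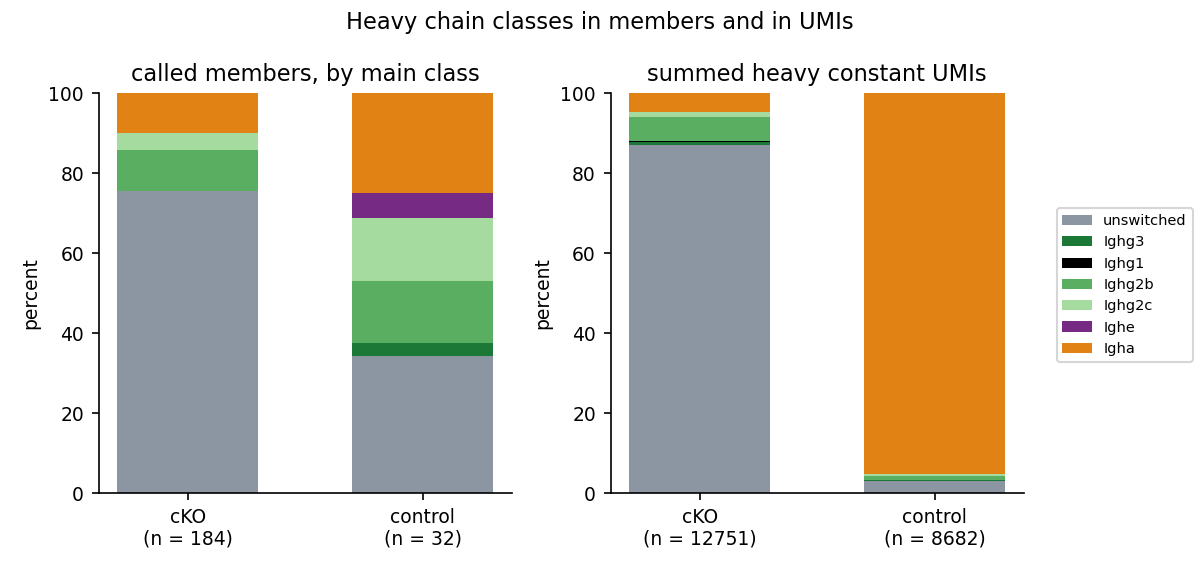
Percent of called members by main heavy chain class (left) and percent of summed heavy constant UMIs (right), with cKO left of control in each panel. Switched classes make up 24.5% of called cKO and 65.6% of called control members, but 13.0% of cKO and 96.9% of control UMIs.

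Light chain use was mostly kappa in both libraries. Igkc (chromosome 6, 70726435 to 70726966 on the plus strand) stood at 21168 CPM in cKO and 96150 CPM in control members, 4.54-fold lower, with 27949 of the 31958 control UMIs in the most IgA-rich member and 4009 without it. Median Igkc was 52 UMIs per cKO member and 18 UMIs per control member. Of members with at least 5 light chain UMIs, lambda led in 28 of 185 in cKO (15.1%, 10.3 to 21.1) and 4 of 44 in control (9.09%, 2.53 to 21.7), a difference within the intervals. Iglc1 stood at 1347 and 960 CPM in cKO and control, Iglc2 at 1587 and 1140 CPM, and Iglc3 at 836 and 818 CPM, none past the size rule.

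Plasma cell genes split between the libraries. Of 19 listed genes 17 reached 20 CPM, 4 were higher in cKO members and 6 lower, with a median log2 ratio of 0.09. Of all genes, 12.9% were higher and 5.67% lower. Irf4, a transcription factor needed for plasma cell formation, had 99 UMIs in 56 cKO members and 5 UMIs in 3 control members, a CPM ratio of 3.64 (1.65 to 12.6). The chaperone gene Hsp90b1 of the endoplasmic reticulum stood at 587 CPM in cKO and 352 CPM in control, the disulfide isomerase gene Pdia4 at 195 and 84.2 CPM in cKO and control, and the surface receptor gene Slamf7 at 107 and 69.2 CPM. Lower were Jchain, which joins IgA and IgM into polymers, at 962 CPM in cKO and 11514 CPM in control, and Xbp1, the transcription factor of the secretory response, at 118 CPM in cKO and 487 CPM in control. Tnfrsf17, which encodes the survival receptor BCMA, was 7.61-fold lower (2.76 to 23.7), Eaf2 2.54-fold, Txndc5 2.21-fold and Edem1 2.08-fold lower.

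Few members carried most of the lower genes. The most IgA-rich control member held 3351 of 3827 Jchain, 136 of 162 Xbp1 and 107 of 127 Txndc5 UMIs of its library, and without the most immunoglobulin-rich member of each library 6 of the list were higher and 2 lower. Without plasma-like members, defined below, 2 were higher and 1 lower. Mzb1, a chaperone of marginal zone B cells and plasma cells, stood at 1247 CPM in cKO and 1161 CPM in control, and Sec11c of the signal peptidase at 387 CPM in cKO and 400 CPM in control. Prdm1, which encodes the plasma cell regulator Blimp-1, had 22 UMIs in 12 cKO members and 1 UMI in control, a ratio of 3.02 (0.716 to 183). Sdc1, which encodes CD138, stood at 23.6 CPM in cKO and 21.1 CPM in control, and Derl3 at 12.1 and 15 CPM in cKO and control. Fkbp11, Creld2, Ell2 and Herpud1 lay between 21.2 and 107 CPM in cKO and between 12 and 141 CPM in control, none past the rule.

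Members with many Jchain UMIs differed in class between the libraries. A member was plasma-like with UMIs of at least 4 of 9 genes (Jchain, Mzb1, Xbp1, Prdm1, Sdc1, Tnfrsf17, Derl3, Fkbp11, Txndc5), which held for 12 cKO and 8 control members. At least 15 Jchain UMIs were found in 7 cKO and 5 control members. In 6 of the 7 cKO members Ighm led, and the 3 deepest of these held 3333, 1506 and 1061 Ighm UMIs with 288, 827 and 308 Jchain UMIs. In cKO, 2 of the 7 were gut-rich. In control, 3 members were IgA-rich with 3351, 212 and 197 Jchain UMIs, and the other two had 17 Jchain UMIs each, switched Ighg2c and 4 germinal centre genes. Over these members Ighm stood at 76652 CPM in cKO and 827 CPM in control, and Igha at 1051 CPM in cKO and 87641 CPM in control. Without plasma-like members the Ighm log2 ratio was 1.87 instead of 3.22.

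Germinal centre genes were lower in cKO members. Of 9 listed genes 8 reached 20 CPM, 0 were higher and 6 lower, with a median log2 ratio of -2.40 against 0.13 for all 5926 genes. Of those 5926 genes 5.67% were lower. Rgs13, a regulator of G protein signalling in germinal centre cells, stood at 20.6 CPM in cKO and 171 CPM in control, 8.27-fold lower (5.35 to 13.1). S1pr2, a receptor that keeps cells in the germinal centre, was 22-fold lower (7.02 to 134) on 3 UMIs in cKO and 15 in control. Gcsam stood at 3.64 CPM in cKO and 48.1 CPM in control, and Basp1 at 122 CPM in cKO and 208 CPM in control. Mef2b, a transcription factor upstream of Bcl6, had 33 UMIs in 23 cKO members and 35 UMIs in 9 control members, 5.26-fold lower (3.18 to 8.74). Bcl6, the master regulator of the germinal centre, stood at 13.3 CPM in cKO and 30.1 CPM in control, 2.32-fold lower (0.954 to 4.97), not past the rule over all members, and passed it in those with at least 10 chosen UMIs.

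These transcripts lay in few members. UMIs of at least 2 of 5 genes of the list, S1pr2, Mef2b, Gcsam and Rgs13 among them, were held by 9 of 219 cKO members (4.11%, 1.90 to 7.66) and 9 of 47 control members (19.1%, 9.15 to 33.3), and of at least 4 by 1 cKO and 8 control members. Among members with at least 10 chosen UMIs 8 of 137 in cKO (5.84%, 2.55 to 11.2) and 9 of 27 in control (33.3%, 16.5 to 54.0) held at least 2. Ighm had 246 UMIs in 7 of the 9 cKO members and 0 UMIs in the 9 control members. Of Ighg2b these cKO members held 62 UMIs and the control members 0, and of Ighg2c 8 and 17 UMIs in cKO and control. Cell cycle genes had 0 higher and 4 lower of 8 reaching 20 CPM, where 5.67% of all genes were lower. Ccnb2, a mitotic cyclin, stood at 13.9 CPM in cKO and 69.2 CPM in control, and 19 of its 23 control UMIs lay in the 9 members. Stmn1, a microtubule regulator, stood at 112 CPM in cKO and 205 CPM in control over all members, and at 79.0 CPM in cKO and 71.0 CPM in control in members with fewer than 2 of these genes. Basp1 was not lower outside these members, at 119 CPM in cKO and 71.0 CPM in control. Without the 18 members 188 genes were lower in cKO in place of 336. Histone genes outside the cell cycle list went the other way among members with at least 10 chosen UMIs. The cKO over control ratio there was 16.1 (6.35 to 91.5) for Hist1h2ap, 9.56 (3.74 to 54.5) for Hist1h1b and 8.12 (3.17 to 46.3) for Hist1h2ae, each on 3 control UMIs.

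Genes of recirculating and of marginal zone or B-1 cells were in part higher in cKO members, by the rule that called 12.9% of all genes higher. Of 11 follicular B cell genes, 4 passed the rule as higher and 0 as lower, and the median log2 ratio was 0.50. They were S1pr1, the receptor for exit along sphingosine phosphate, at 105 CPM in cKO and 21.1 CPM in control, a ratio of 4.66 (2.37 to 12.6), its activator Klf2 at 482 CPM in cKO and 214 CPM in control, the lymph node homing receptor Ccr7 at 81.2 and 30.1 CPM in cKO and control, and the complement regulator Cd55 at 75.8 and 39.1 CPM. Fcer2a, which encodes the follicular cell receptor CD23, stood at 91.5 CPM in cKO and 66.2 CPM in control, and the precursor and naive cell regulator Bach2 at 48.5 CPM in cKO and 63.2 CPM in control. Of 8 tested marginal zone and B-1 cell genes 5 were higher and 0 lower (median 1.15). Among them Zbtb32, a repressor found in B-1 and memory cells, stood at 46.1 CPM in cKO and 9.03 CPM in control (ratio 4.40, 1.68 to 25.3), Plac8 at 1335 and 463 CPM in cKO and control, and Bhlhe41, a factor of B-1a cells, at 128 and 66.2 CPM. Cd1d1, which presents lipids to NKT cells, had 45 UMIs in cKO and 0 in control members, at least 3.02-fold higher. Cd9 did not pass the rule without the gut-rich members, which left 4 of 8 higher. In members with fewer than 2 germinal centre genes the ratio was 1.73 for Klf2 (1.35 to 2.28), 3.25 for S1pr1 (1.65 to 8.76) and 1.25 for Bhlhe41 (0.822 to 2.09). Within unswitched members the ratio was 0.717 for Klf2 (0.523 to 1.04), 1.86 for S1pr1 (0.727 to 10.6), 1.13 for Plac8 (0.847 to 1.57) and 0.676 for Bhlhe41 (0.353 to 1.69). Switched members outside the plasma-like and germinal centre groups gave 1.36 for Klf2 (0.887 to 2.23) and 0.776 for S1pr1 (0.260 to 3.54). Plac8 stayed higher there, at 2.14 (1.73 to 2.70), and Bhlhe41 was 1.34 (0.722 to 2.93).

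**Figure D5:**
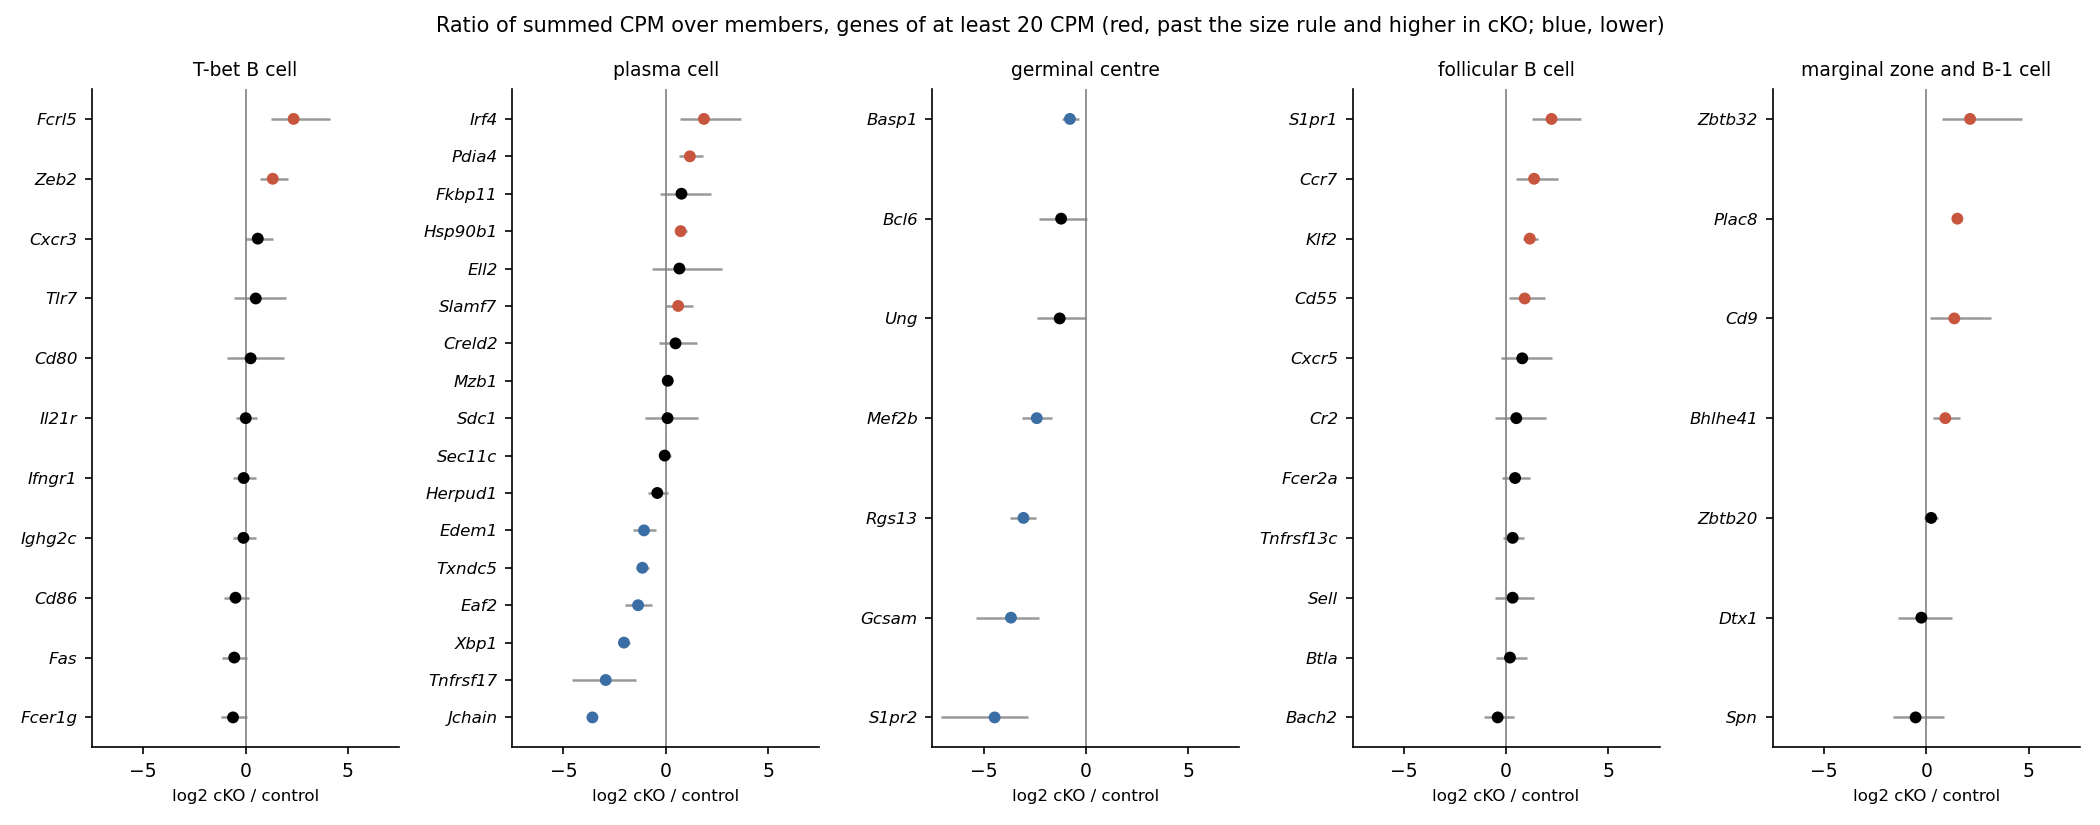
Log2 ratio of summed CPM, cKO over control, with its exact 95% counting interval for the reported list genes of at least 20 CPM with UMIs in both libraries. Red points are past the size rule and higher in cKO, blue points lower, and black points not past it; germinal centre genes lie at or left of 0, follicular genes mostly right of it, and plasma cell genes on both sides.

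B cell identity and receptor signalling genes were in part higher in cKO members. Of 19 identity genes, which include those of the rule, 8 were higher and 1 lower (median log2 ratio 0.33). For the lists of this paragraph the shares over all genes were 12.9% higher and 5.67% lower. Cd72, an inhibitory coreceptor, stood at 397 CPM in cKO and 90.3 CPM in control (ratio 4.33, 3.05 to 6.57), the adaptor-like Fcrla at 390 and 162 CPM in cKO and control, the surface protein gene Ly6d at 3058 and 1336 CPM, and Pax5 at 158 and 75.2 CPM (ratio 2.06, 1.39 to 3.30). Lower was Pou2af1, a coactivator needed for germinal centres, at 115 CPM in cKO and 211 CPM in control. It stood at 103 CPM in cKO and 124 CPM in control in members with fewer than 2 germinal centre genes. Of 15 receptor signalling genes 4 were higher and 0 lower (median 0.25): the inhibitory Fc receptor Fcgr2b at 161 CPM in cKO and 72.2 CPM in control, the kinases Prkcb at 101 and 57.2 CPM and Syk at 247 and 147 CPM in cKO and control, and Rasgrp3 at 181 and 114 CPM. Of other ETS factors Elf2 stood at 51.5 CPM in cKO and 12 CPM in control and Elk3 at 50.9 CPM in cKO and 12 CPM in control, both higher. With Ets1 counted, 2 of 11 tested ETS factors were higher and 0 lower, close to the 12.9% of all genes that were higher. Among members with at least 10 chosen UMIs 2 were higher and 1, Ets1 itself, lower, where 6.68% of all genes were lower. Of 15 tested B lineage transcription factors 4 were higher and 1 lower, among them Pou2f2, which activates immunoglobulin genes, at 445 CPM in cKO and 208 CPM in control.

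Antigen presentation genes were high in both libraries. Of 15 tested genes 3 were higher in cKO and 0 lower (median log2 ratio 0.47), a share not far from the 12.9% of all genes. Cd74 reached 11893 CPM in cKO and 10575 CPM in control, and the class II gene H2-Eb1 stood at 3791 CPM in cKO and 2488 CPM in control (ratio 1.52, 1.42 to 1.64). H2-Ob, which tunes peptide loading, stood at 501 CPM in cKO and 283 CPM in control, and the activation marker Cd83 at 138 CPM in cKO and 84.2 CPM in control. Aire, the regulator of tissue antigen display that thymic B cells can express, had 16 UMIs in 8 cKO members and 3 UMIs in 3 control members, 9.70 CPM in cKO and 9.03 CPM in control.

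Activation, interferon and survival genes gave mixed counts, where 12.9% of all genes were higher and 5.67% lower over all members. Of 14 immediate early and activation genes 7 were higher and 1 lower over all members, and 2 higher and 1 lower in those with at least 10 chosen UMIs. Fos stood at 439 CPM in cKO and 214 CPM in control, and Egr3 at 43.0 CPM in cKO and 9.03 CPM in control. Of 10 tested interferon-stimulated genes 3 were higher and 2 lower, with Ifi27l2a at 1990 CPM in cKO and 873 CPM in control and Ifit1 2.18-fold lower (1.18 to 3.75). Of 8 tested survival genes and BAFF receptors 2 were higher and 1, Tnfrsf17, lower, and among members with at least 10 chosen UMIs 2 were higher and 2 lower, with Bcl2a1d the other lower one. Bcl2, which protects cells from death, stood at 176 CPM in cKO and 75.2 CPM in control (ratio 2.30, 1.56 to 3.68), and Tnfrsf13b, a receptor for BAFF and APRIL, at 205 CPM in cKO and 126 CPM in control. Of 4 tested precursor genes 0 were higher and 3 lower, and Vpreb3 stood at 39.4 CPM in cKO and 72.2 CPM in control, with Rag1 at 1 UMI in each library. In members with fewer than 2 germinal centre genes Vpreb3 stood at 31.2 CPM in cKO and 35.5 CPM in control, a ratio of 0.837 (0.413 to 2.15).

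The largest ratios over all members came from gut genes. The 10 highest among genes of at least 50 CPM were Fabp2, Fabp6, Zg16, Apoa1, Defa24, Tff3, Defa30, Reg3b, Agr2 and Spink4, all with 0 UMIs in control members, from at least 158-fold (Fabp2) to at least 24.4-fold higher (Spink4). Without the gut-rich members the 10 were Cd36, Rb1, Dpp4, Ighm, Hist1h2ap, Ccr1, Pld4, Prg2, Lmo4 and Fcrl5. Cd36, a scavenger receptor, had 101 UMIs in 43 cKO members and 1 UMI in control, a ratio of 14.5 (3.79 to 862). Dpp4, which encodes CD26, had 118 UMIs in 76 cKO members and 2 UMIs in control (ratio 10.1, 3.42 to 105), and the endosomal nuclease gene Pld4 stood at 182 CPM in cKO and 27.1 CPM in control. Prg2, an eosinophil granule protein gene, had 103 UMIs in only 4 cKO members. Lowest over all members were Igha, Nuggc, Jchain, Slpi, Scimp, Rgs13, Tmem176a, Neil1, Ifi44 and Csrp2. Nuggc, a germinal centre GTPase, was 36.7-fold lower (10.7 to 397) on 2 UMIs in cKO and 18 UMIs in 11 control members. Scimp, a class II signalling adaptor, stood at 18.8 CPM in cKO and 171 CPM in control, 9.06-fold lower (5.79 to 14.6), and Neil1, a DNA glycosylase, at 14.5 CPM in cKO and 105 CPM in control.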

How the data were processed

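Barcodes by gene count matrices of 2 libraries, 1 per genotype and each pooled from 2 mice, hold whole-number UMI counts deposited by the authors, made per the labels with a 3′ kit. The submitters' processing notes name Cell Ranger 2.1.1 and mm10, whereas the matrix headers name version 3.0.0. For annotation and counting options, the sources are silent (not given in the sources used here). Each matrix holds 32285 features, of which none is YFP or Cre. The libraries hold 39979742 UMIs in 11206 cKO barcodes and 35210431 UMIs in 10102 control barcodes, and every deposited barcode held at least 500 UMIs.

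Counts were summed over members and divided by their summed UMIs. Levels have Poisson, shares Clopper-Pearson and ratios conditional binomial exact 95% intervals, with 0.5 UMIs added to each sum for the ratio itself, and a count of 0 was set to a floor of 3 counts per library. UMIs of 1 cell are not independent of each other, so intervals and floors cover counting error only. No test was made. No doublet caller was run, and alternatives left out members with UMIs of other cells and the tenth of members with most UMIs. The size rule was tested on simulated data, and the thinning was checked on control barcodes for its totals and for values above their source.

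Named were all members of the T-bet, immunoglobulin and plasma cell lists, Ets1, the 10 highest and 10 lowest ratios past the size rule at 50 CPM or more (without mitochondrial, ribosomal, receptor segment, sex-linked and uncharacterised genes), and up to 4 members with the largest change and the highest member of other lists. Other genes were named after their values were seen, and a few listed genes count in their lists but are not reported here by name. The members and lists were chosen with earlier results of these data known. Genes were placed with GENCODE M21, and transcripts aligned with Biopython. Scripts ran in Python 3.11.15 with pandas 2.3.3, matplotlib 3.10.9, numpy 2.4.6 and scipy 1.17.1. Alternatives that allow Cd3 UMIs, or leave out gut-rich, germinal centre or immunoglobulin-rich members, were chosen after seeing the data.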

Additional observations from a re-analysis of the deposited data

How the results depend on the processing

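No paired analysis was possible because each genotype has 1 library and no replicate numbers are shared. Values as reported come first and the alternatives follow; where a value moved by more than its counting interval or a count by over 1.5 times, the cause was not tested unless the alternative removes the members concerned. With Cd3 UMIs allowed, an alternative chosen after seeing the data, the ratio of B cell shares was 1.65 in place of 5.84, the Ets1 log2 ratio -1.11 in place of -0.53, the Ighm log2 ratio -0.06 in place of 3.22, the T-bet list had 5 genes higher in place of 2, and the difference in switched UMI share was -48.7 percentage points in place of -83.9 and in switched members -13.9 in place of -41.2. Without germinal centre members the Ets1 log2 ratio was -0.03, the Ighm log2 ratio 2.70 and 188 genes were lower in place of 336. Without the most immunoglobulin-rich member of each library, the Ighm log2 ratio was 3.04, 528 genes were lower, the switched share difference was -72.0, and 6 plasma cell genes were higher and 2 lower in place of 4 and 6. Both of these were also chosen after seeing the data. Without plasma-like members the Ighm log2 ratio was 1.87, the switched share difference -31.2 and 2 plasma cell genes were higher and 1 lower in place of 4 and 6. Without the tenth of members with most UMIs the values were 2.12 for Ighm, -68.5 for the switched share, 404 genes higher in place of 763, and 2 plasma cell genes higher and 2 lower. With members weighted equally they were 2.59 for Ighm, -36.2 for the switched share, 2013 genes higher and 1503 lower. These 2 gene counts asked only for the 1.5-fold change and the 20 CPM, with no condition on the interval. They are therefore not comparable with 763 and 336. With mitochondrial, ribosomal and immunoglobulin genes left out of the totals the values were 3.04 for Ighm, 647 genes lower and 2 plasma cell genes higher. At most 5% mitochondrial UMIs gave 3.51 for Ighm, -85.0 for the switched share and 4 T-bet genes higher, and at most 20% gave -82.4 for the switched share. A 2-fold size gave 206 genes lower and 2 plasma cell genes higher, and a minimum of 50 CPM gave 487 higher and 218 lower. The 47 control members, with 332378 UMIs, set the depth: a control gene with 0 UMIs cannot be placed below 9.03 CPM.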
